A study of Rattus norvegicus with 22 samples.

Results

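Pachytene spermatocytes of rats given cyclophosphamide were compared with those of rats given saline. The comparison took every array labelled as pachytene spermatocytes, 10 of the 22 arrays of the series, with 5 of cyclophosphamide-treated rats and 5 of saline-treated rats. Cyclophosphamide is an alkylating anticancer drug, given here by gavage at 6 mg/kg on 6 days of each week for 4 weeks, and control rats were gavaged with saline. The germ cells had been separated by size through sedimentation at unit gravity, and their RNA was hybridised to Agilent one-colour arrays. All animals were male rats, and strain, age and genotype were not used here. The other 12 arrays held round spermatids, 6 per treatment, and served to estimate the spread and to classify genes by cell type.

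The metabolites of cyclophosphamide form adducts and crosslinks on DNA. Pachytene spermatocytes are in the long stage of meiotic prophase in which homologous chromosomes are paired by the synaptonemal complex and exchange strands, and in which the X and Y chromosomes are silenced. They divide into round spermatids, which switch on the genes of the acrosome, the tail and the protamines that compact sperm DNA.

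The 10 arrays resembled each other closely, with correlations of 0.981 to 0.9919 over all probes, and 66.4% to 72.7% of probes were well above background. A level is the log2 intensity of a probe minus the 75th percentile of its array, so that a level of 0 is the brightness of that percentile. Levels of different probes are not compared. The rat numbers in the labels were taken as different animals. The p-values set a difference against the spread within groups over all 22 arrays, round spermatids included. Of 24 pachytene marker genes on the array, all were well above background on all 10 arrays, and 14 were at least 2-fold higher in pachytene than in round spermatid arrays and 3 at least 2-fold lower. Sycp3, a protein of the synaptonemal complex, had levels of 3.59, 3.32, 3.61, 3.55 and 3.54 after cyclophosphamide (rats 7, 15, 16-2011, 16-2012 and 29) and 3.26, 3.24, 3.43, 3.53 and 3.25 after saline (rats 13, 16, 25, 26 and 28). Later values are given in this order of rats. Markers of other cells were also measured: all 19 round spermatid markers, all 14 late spermatid markers and 20 of 22 Sertoli cell markers were well above background on all 10 arrays.

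No gene passed the test for a difference between treatments. Of 18450 genes tested with limma, 0 had a Benjamini-Hochberg adjusted p under 0.05 (0.0% called), and the smallest adjusted p was 0.182. At an unadjusted p under 0.05, 425 genes (2.3%) were higher after cyclophosphamide and 1255 (6.8%) were lower. Differences were small: among these genes, 60 were higher and 237 lower by more than 1.5-fold, and 15 were higher and 21 lower by more than 2-fold. The median standard error was 0.17 on the log2 scale, and the 95% interval of 93.8% of the genes lay within a 2-fold difference in either direction. The unadjusted count of 1680 genes moved when single arrays were left out. It was 1060 without cyclophosphamide rat 16-2012 and 972 without cyclophosphamide rat 29. It was 856 without saline rat 28 and 2947 without saline rat 26. Without cyclophosphamide rat 16-2012, slide 4 held saline arrays only, and without saline rat 28, slide 3 held cyclophosphamide arrays only. Slides 3 and 4 held no round spermatid arrays, so each of these fits lost a slide from the comparison. Genes higher after cyclophosphamide made up 25.3% of the unadjusted calls, against 43.1% when arrays were scaled to their median and 37.8% after another background correction. With the 10 pachytene arrays fitted alone, the share was 34.0%, and 38.6% in the same fit of the authors' value table. The lean toward lower levels also followed brightness. In the dimmest 20% of the genes, the median difference was -0.10 and 382 genes were lower against 48 higher. In the brightest 20%, the median was 0.11, with 106 lower and 136 higher. Signal above background in either treatment group sufficed for testing. On no cyclophosphamide array were 22 tested genes well above background, so that they entered through the saline arrays alone. Of these, 15 had an unadjusted limma p under 0.05. Only 1 tested gene was well above background on no saline array.

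**Figure D1:**
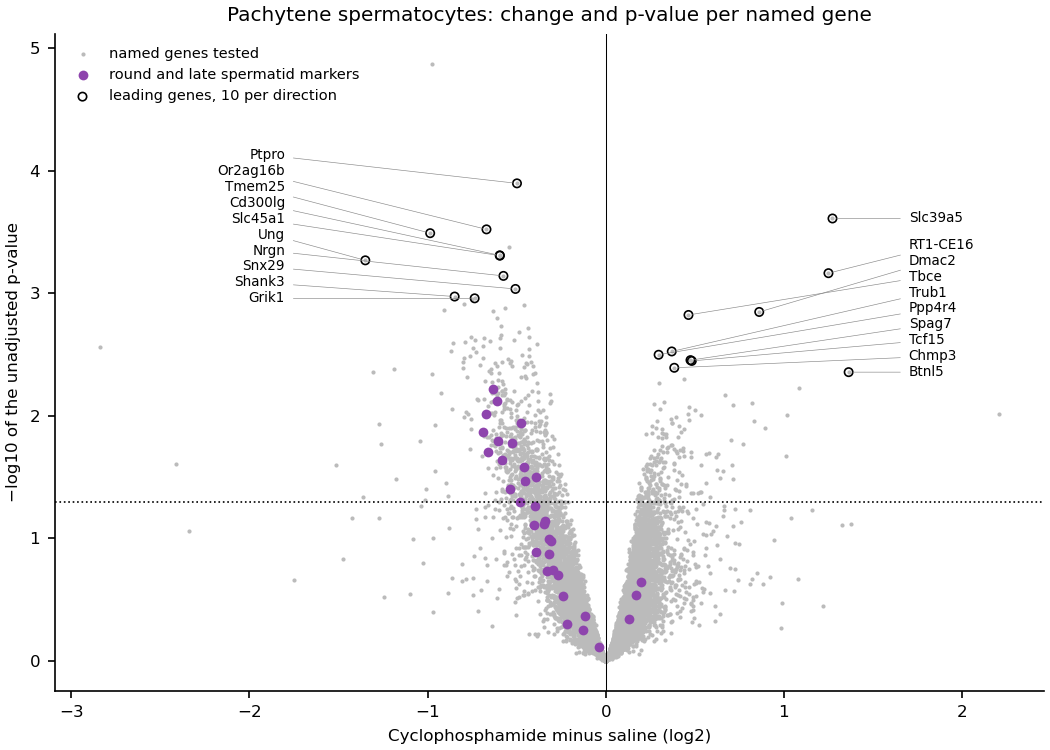
Each point is 1 of the 10654 tested genes with a symbol, with the difference of cyclophosphamide minus saline in pachytene spermatocytes on the x axis (log2) and −log10 of the unadjusted limma p-value on the y axis; the dotted line marks an unadjusted p of 0.05. The 33 round and late spermatid markers (purple) lie mostly left of 0, and the 20 named leading genes (circles) spread over both sides.

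Transcripts of the haploid stage that follows meiosis were lower after cyclophosphamide. Of 19 round spermatid markers, 17 lay below 0, with a median of -0.32, against a median of 0.03 over all tested genes. Of 14 late spermatid markers, 13 lay below 0, with a median of -0.40. At an unadjusted p under 0.05, 8 of the round (42.1%) and 5 of the late spermatid markers (35.7%) were lower and 0 were higher. Over all tested genes, 6.8% were lower and 2.3% higher at that threshold. Of either list, 0 passed the adjusted test. The list mean of the round spermatid markers was 0.85, 1.30, 0.87, 0.69 and 1.07 after cyclophosphamide and 1.46, 1.72, 1.24, 0.82 and 1.17 after saline. The groups overlapped, because cyclophosphamide rat 15 stood among the saline arrays and saline rat 26 among the cyclophosphamide arrays. Without saline rat 16, the array with the highest mean, the median of the round spermatid markers was -0.17 and that of the late spermatid markers -0.26. Without cyclophosphamide rat 16-2012, which leaves slide 4 with saline arrays only, the medians were -0.16 and -0.32. Within the 4 slides, the medians were -0.12, -0.16, -0.38 and -0.71 for round and -0.36, -0.34, -0.30 and -0.65 for late spermatid markers. Slides 1 and 2 held 1 pachytene array per treatment. Slide 3 held 2 of cyclophosphamide and 1 of saline, and slide 4 held 1 and 2. Each within-slide value, here and below, thus rests on single rats. In bulk RNA, fewer spermatids in a pachytene preparation and less spermatid RNA per cell cannot be told apart. The log2 of the summed signal of the round spermatid markers was 5.84 to 6.37 on the cyclophosphamide arrays and 5.97 to 6.79 on the saline arrays. For the late markers, it was 8.85 to 9.52 and 8.90 to 9.83, and none of the 33 markers tested was below background on any array. The part of other cells in these differences was not tested.

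Akap4, an X-linked gene for the main scaffold of the fibrous sheath of the tail, had levels of 0.78, 1.59, 0.57, 0.31 and 1.08 after cyclophosphamide and 2.03, 2.11, 1.51, 0.64 and 1.30 after saline. It was lower by a log2 difference of -0.67 ± 0.23 (SE; limma adjusted p = 0.53), and the groups overlapped. Tssk3, a spermatid-specific serine kinase, had levels of 1.88, 3.25, 2.60, 2.26 and 2.61 against 3.68, 3.61, 3.11, 2.43 and 3.0, a difference of -0.63 ± 0.20. Cyclophosphamide rats 7 and 16-2012 were below all saline arrays, and the other 3 lay within the saline range. Gapdhs, the glycolytic enzyme of sperm, differed by -0.61 ± 0.20. Transcripts of the protamine genes were on this side: Prm2 differed by -0.66 ± 0.26, Prm3 by -0.48 ± 0.23 and Prm1 by -0.39 ± 0.25. The transition proteins, which precede the protamines, gave -0.45 ± 0.20 for Tnp2 and -0.35 ± 0.18 for Tnp1. Prm1 had levels of 5.92, 6.42, 5.34, 5.29 and 5.64 after cyclophosphamide and 6.80, 6.49, 5.99, 5.31 and 5.86 after saline. Its groups overlapped, and saline rat 13 was the highest and cyclophosphamide rat 16-2012 the lowest array. Members on the other side were Dpy19l2 at 0.17 ± 0.15, Catsper4, a subunit of the sperm calcium channel, at 0.20 ± 0.16, and Odf2, a protein of the outer dense fibres and centrosomes, at 0.13 ± 0.17.

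Many genes of the haploid programme carry a cyclic AMP response element, the site bound by CREM, the activator of spermatid genes. The complete element TGACGTCA, searched on both strands in the 250 bases before the gene start in RefSeq promoters (build GRCr8), was present for 1.78% of 27457 genes with a promoter there. Of the 33 spermatid markers, 30 had a promoter in the table and 3 held the element: Izumo1, which binds the egg, Tnp1 and Crem itself. The shorter TGACG, which lies within the complete element, was present for 19.96% of these genes and for 10 of the 30 markers. The stretches around the complete element are shown to place it before each gene start, with the element in capitals. They run 5′ to 3′ on the strand of the gene, and Crem has the element before each of 2 annotated starts.
Izumo1, chr1:105227464-105227551, plus strand: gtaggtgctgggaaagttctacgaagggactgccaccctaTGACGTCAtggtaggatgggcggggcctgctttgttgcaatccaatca
Tnp1, chr9:82044344-82044431, minus strand: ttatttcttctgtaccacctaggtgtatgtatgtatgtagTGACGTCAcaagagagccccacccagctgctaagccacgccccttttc
Crem, chr17:58984701-58984788, plus strand: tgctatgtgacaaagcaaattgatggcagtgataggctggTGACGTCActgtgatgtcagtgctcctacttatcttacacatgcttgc
Crem, chr17:58985415-58985489, plus strand: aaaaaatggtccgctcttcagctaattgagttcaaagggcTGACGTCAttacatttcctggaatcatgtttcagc
The element ended 91 bases before the start of Izumo1, 105 before that of Tnp1 and 48 and 27 before those of Crem. Of these genes, Izumo1 differed by -0.32 ± 0.20, Tnp1 by -0.35 ± 0.18 and Crem by -0.04 ± 0.12. A match describes the letters only, and no binding was measured.

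Kinases and regulators of spermatids gave a similar picture. Of 30 tested, 23 lay below 0, and the median was -0.36. Among them, 11 (36.7%) were lower and 0 higher at an unadjusted p under 0.05, against 6.8% and 2.3% of all tested genes. Members of the testis-specific serine kinase family that reached that level were Tssk1b at -0.43 ± 0.18, Tssk2 at -0.46 ± 0.18, Tssk3 and Tssk6 at -0.60 ± 0.23. Others were Spem1 at -0.69 ± 0.25, Spatc1 at -0.64 ± 0.21, Tppp2 at -0.63 ± 0.23, Ccin, a protein of the sperm head cytoskeleton, at -0.51 ± 0.20, and Taf7l, an X-linked subunit of a transcription factor, at -0.41 ± 0.18. Actl7a, an actin-like protein of the acrosome region, had levels of 0.50, 0.97, 0.36, 0.18 and 0.58 after cyclophosphamide and 1.31, 1.35, 0.76, 0.56 and 1.15 after saline. Its difference was -0.54 ± 0.16, with rats 15 and 29 of the drug group within the saline range. The median was -0.21 without saline rat 16 and -0.22 without cyclophosphamide rat 16-2012. The list shares Crem, Spem1, Tssk3 and Tssk6 with the round spermatid markers and is not independent of them. Acrosome and egg binding genes had a median of -0.12, with 19 of 34 below 0. At that level, 6 (17.6%) were lower, against 6.8% of all tested genes. They included Spaca4 at -0.48 ± 0.17 and the hyaluronidase gene Hyal5 at -0.44 ± 0.17. Spaca4 is also a round spermatid marker, so the acrosome list is not independent of those markers. The median of the acrosome list was -0.07 without saline rat 13, -0.06 without saline rat 16 or cyclophosphamide rat 16-2012, and 0.06 within slide 2. Adam2, a sperm surface protein made from the pachytene stage, gave 0.27 ± 0.18. Sperm ion channels had a median of 0.02, with 8 of 15 above 0, and genes of the cilium, axoneme and fibrous sheath one of 0.06, with 28 of 42 above 0.

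**Figure D2:**
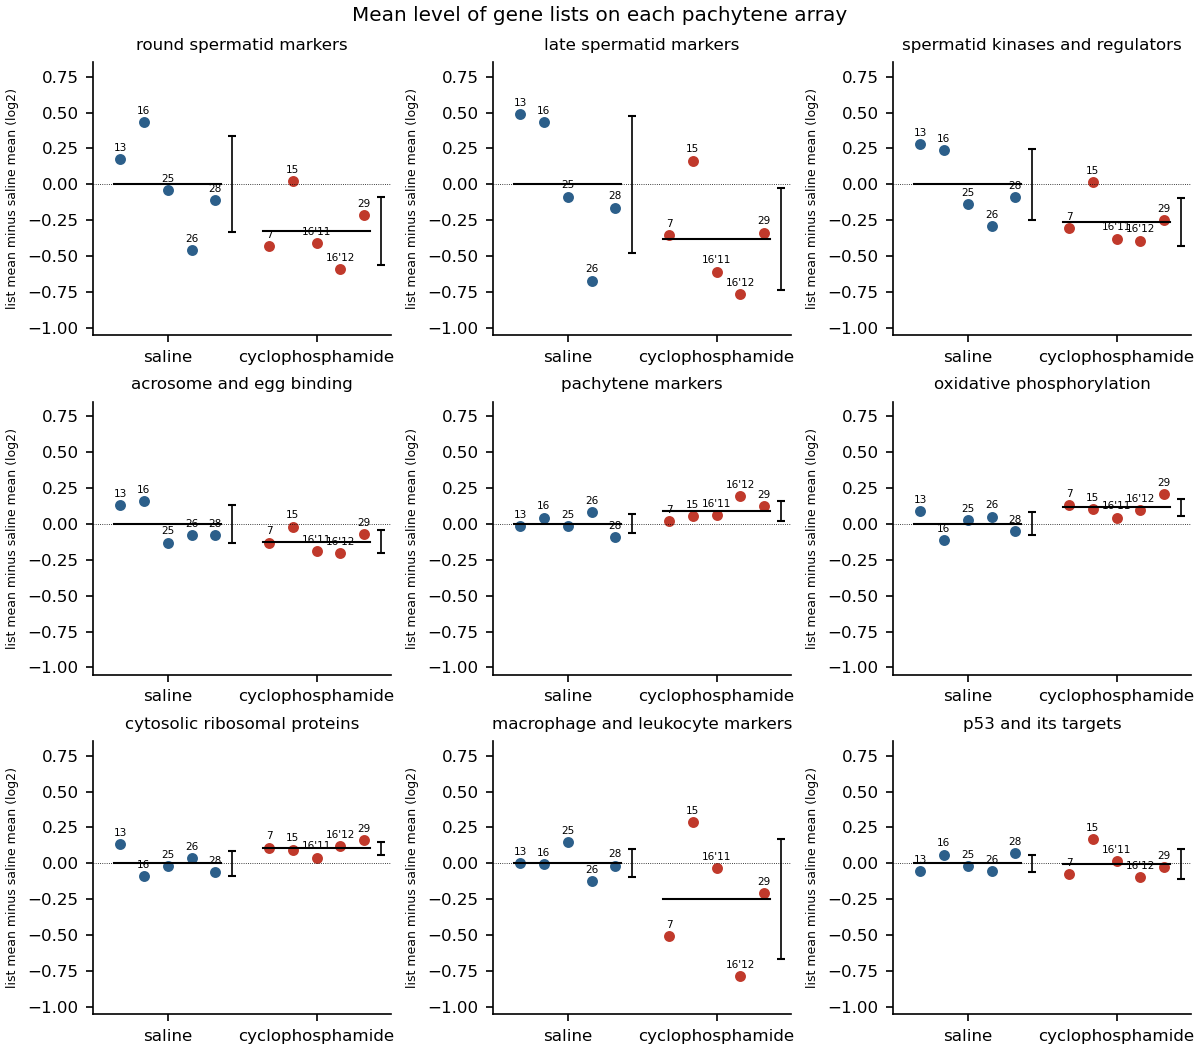
Each panel shows 1 gene list; points are the 10 pachytene arrays, labelled by rat, at the mean log2 level of the list minus the mean of the 5 saline arrays, with the group mean (line) and SD (bar). Saline rats 13 and 16 are highest and saline rat 26 is lowest among the saline arrays for round and late spermatid markers, and all 5 cyclophosphamide arrays are above the saline mean for oxidative phosphorylation.

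The same direction was found across all genes that round spermatids express more strongly. Genes were binned, after the lists had been seen, by the mean of all 12 round spermatid arrays minus that of all 10 pachytene arrays, in which both treatments weigh equally. The round spermatid arrays were all on slides 1 and 2, whereas pachytene arrays were also on slides 3 and 4. These means took no account of slide, so every cell type difference given here includes any difference between slides. Among autosomal genes at least 4-fold higher in round spermatids (1155 genes), the median drug difference in pachytene cells was -0.37, and 97.3% lay below 0. In this bin, 417 (36.1%) were lower and 0 higher at an unadjusted p under 0.05. Over all autosomal genes, 6.4% were lower at that threshold and 43.2% lay below 0. Among 1135 genes that were 2- to 4-fold higher in round spermatids, the median was -0.13. Genes within 2-fold had a median of 0.06, and those at least 4-fold higher in pachytene cells (985 genes) one of 0.14, with 18.1% below 0. The mean level of the 1155 genes was -1.82, -1.34, -1.71, -2.0 and -1.68 after cyclophosphamide and -1.19, -0.92, -1.44, -1.86 and -1.40 after saline. Saline rat 16 was the highest array, saline rat 26 lay near the lowest, and the groups overlapped. The median of these genes was -0.23 without saline rat 16 and -0.46 without saline rat 26. Within slides it was -0.16, -0.24, -0.37 and -0.63.

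**Figure D3:**
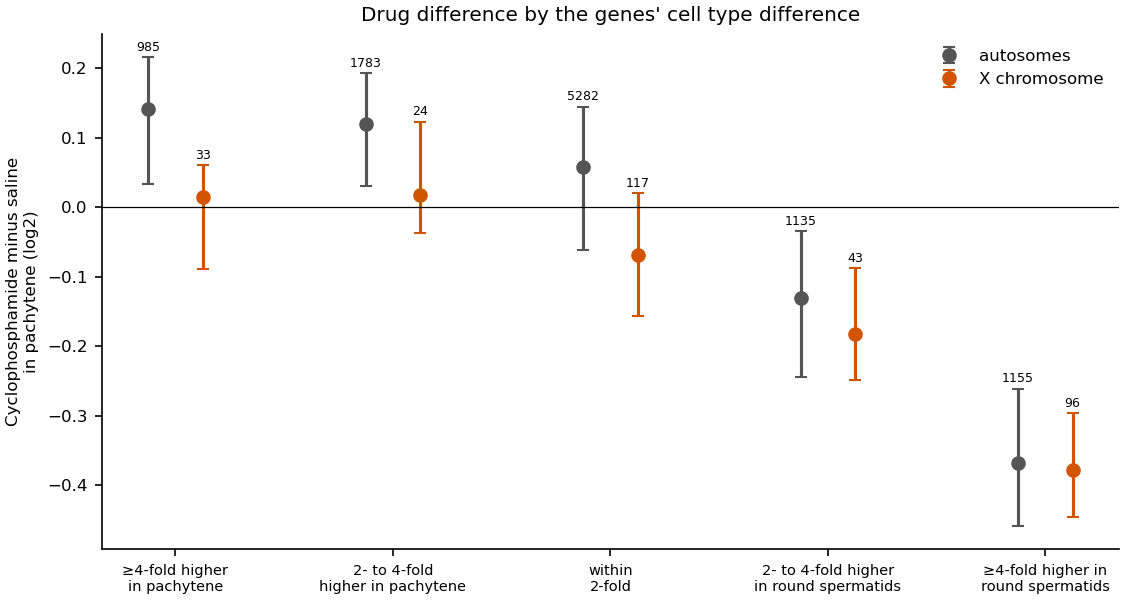
Points are the median difference of cyclophosphamide minus saline in pachytene spermatocytes (log2) for genes binned by their difference between cell types, with the range from the lower to the upper quartile as bars and the number of genes above them. The median moves from 0.14 to -0.37 on the autosomes and from 0.01 to -0.38 on the X chromosome.

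X-linked genes, most of which are silent at the pachytene stage, were examined after their values were seen. The 313 tested had a median difference of -0.14, and 39 (12.5%) were lower and 1 higher at an unadjusted p under 0.05. Over all autosomal genes, 6.4% were lower at that threshold, with 4.6% to 8.7% on single autosomes. The medians of the 20 autosomes lay between -0.00 and 0.06. On the X chromosome, 96 of the 313 genes (30.7%) were at least 4-fold higher in round spermatids, against 11.2% on the autosomes. Within that bin, the X-linked median was -0.38 and the autosomal median -0.37. Among genes at least 4-fold higher in pachytene cells, the X-linked median was 0.01 over 33 genes. The mean X-linked level minus the mean autosomal level was -1.87, -1.64, -1.68, -2.12 and -1.85 after cyclophosphamide and -1.75, -1.46, -1.62, -2.13 and -1.67 after saline. The arrays of cyclophosphamide rat 16-2012 and saline rat 26 were the lowest, saline rat 16 was the highest, and the groups overlapped. The X-linked median was -0.05 without saline rat 16 and -0.06 without cyclophosphamide rat 16-2012, and within slides it was 0.12, -0.26, -0.11 and -0.34. Examples were Snx12, a sorting nexin, at -0.86 ± 0.25 and, on the other side, C1galt1c1, a chaperone of O-glycan synthesis, at 0.26 ± 0.10.

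Most genes of meiosis lay slightly above 0, and few reached the unadjusted threshold. Of the 24 pachytene markers, 18 lay above 0, with a median of 0.16, and 0 reached an unadjusted p under 0.05. The median was 0.08 without slide in the model, 0.09 after quantile normalization, 0.08 without saline rat 13 and 0.10 without cyclophosphamide rat 16-2011. Sycp3 differed by 0.18 ± 0.16 and Sycp1, the transverse filament of the synaptonemal complex, by 0.17 ± 0.15. Hspa2, the chaperone that spermatocytes need to leave prophase, had levels of 5.51, 5.34, 5.21, 5.65 and 5.54 against 5.48, 5.01, 5.05, 5.68 and 5.01. Its difference was 0.26 ± 0.13, and the groups overlapped. Piwil1, the PIWI protein of the pachytene piRNA pathway, differed by 0.16 ± 0.38. Of 141 genes on 7 lists of meiosis, 103 lay above 0, with a median of 0.10 (44.7% of all tested genes lay below 0), and 139 had a 95% interval within 2-fold. Crossover and mismatch repair genes had a median of 0.15, with 16 of 19 above 0 (0.09 without saline rat 13), for example Msh4, which stabilises crossover intermediates, at 0.20 ± 0.13. Homologous recombination genes had a median of 0.08, with 18 of 23 above 0 (0.01 without saline rat 13), and the piRNA pathway one of 0.11, with 16 of 19 above 0. At an unadjusted p under 0.05, 2 of the 141 were higher and 3 were lower, against 2.3% and 6.8% of all tested genes. The lower genes were Rec8, Sun1 and Trim66. Rec8, the meiotic cohesin subunit, gave -0.42 ± 0.19 and Sun1, which ties telomeres to the nuclear envelope, -0.39 ± 0.16. Trim66 gave -0.38 ± 0.18. All were at least 4-fold higher in round spermatid than in pachytene arrays, by log2 differences of 2.35, 2.15 and 2.68. The higher genes were Rad9b at 0.27 ± 0.12 and Hus1b at 0.38 ± 0.18, both subunits of checkpoint clamps. Their round spermatid minus pachytene differences were -0.98 and -4.60. Hus1b had levels of -1.34, -1.25, -1.28, -1.09 and -1.19 after cyclophosphamide and -1.62, -1.50, -1.51, -1.53 and -1.71 after saline, without overlap. Cyclophosphamide arrays were all above saline arrays for 0.412% of all genes tested and all below for 0.211%.

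**Figure D4:**
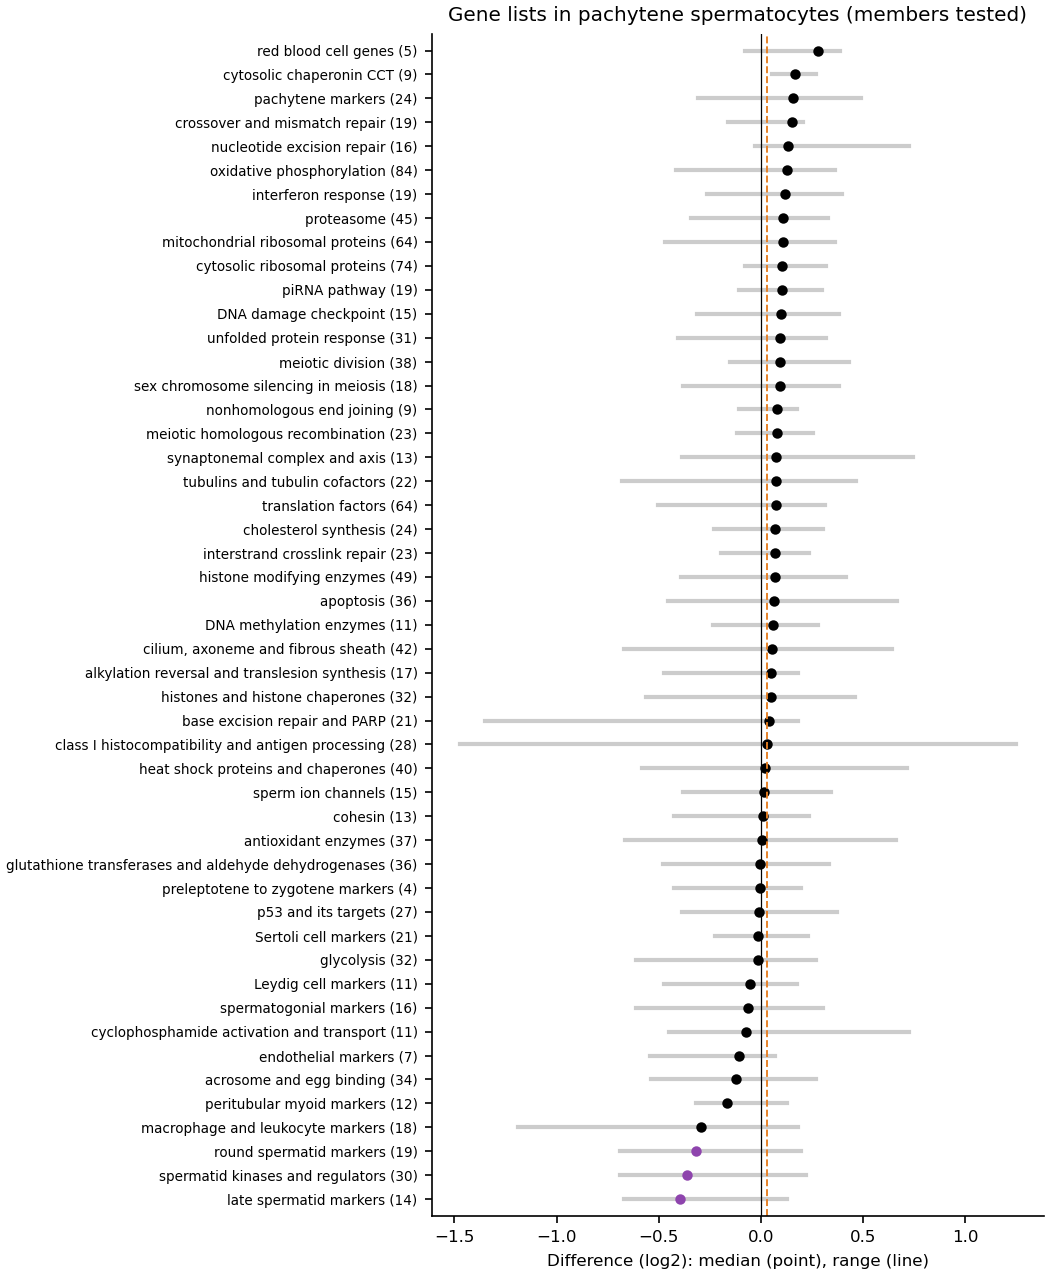
For each of the 49 gene lists, the point is the median and the grey line the range of the log2 difference of cyclophosphamide minus saline, with the number of members tested in parentheses; the dashed line is the median of all tested genes, 0.03. Spermatid lists (purple) are lowest, and most other medians lie between -0.2 and 0.2.

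Transcripts of genes of the DNA damage response differed little. Over 7 lists, 124 genes had a median of 0.06, 121 had a 95% interval within 2-fold, and at an unadjusted p under 0.05 there were 2 higher and 2 lower genes (background 2.3% and 6.8%). The higher genes were Rad9b and Hus1b, and the lower ones Ung and Ephx1. Cdkn1a, the cell cycle inhibitor that p53 induces, had levels of 4.01, 3.51, 3.45, 3.41 and 3.93 after cyclophosphamide and 3.58, 3.40, 3.92, 3.62 and 4.42 after saline. It differed by -0.24 ± 0.15, and the groups overlapped throughout. Mdm2, the ligase that degrades p53, differed by -0.05 ± 0.11 and the apoptosis effector Bax by 0.05 ± 0.24. The p53 targets as a list had a median of -0.01, with 13 above and 14 below 0. Ephx1, microsomal epoxide hydrolase, gave -0.38 ± 0.17. The round spermatid minus pachytene difference was 2.51 for Ephx1 and -0.55 for Ung.

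Repair genes were also near 0. Interstrand crosslink repair, the pathway for the lesions of bifunctional alkylators, had a median of 0.07, with 15 of 23 genes above 0. Its central protein Fancd2 differed by 0.22 ± 0.19. Nucleotide excision repair, which acts beside it, had a median of 0.13, with 12 of 16 above 0, and its damage sensor Xpc differed by 0.06 ± 0.14. Genes of alkylation reversal and translesion synthesis had a median of 0.05, and Mgmt, which removes alkyl groups from guanine, gave -0.12 ± 0.20. Atm, the kinase that signals double-strand breaks, gave 0.22 ± 0.16, H2ax, the histone that Atm marks, -0.00 ± 0.16 and the break sensor Parp1 0.08 ± 0.15. Base excision repair held the lowest single value. Ung, the uracil-DNA glycosylase that opens this pathway, had levels of -4.19, -3.53, -3.81, -4.23 and -3.50 after cyclophosphamide and -2.82, -2.47, -2.03, -4.17 and -1.82 after saline. Its difference was -1.35 ± 0.32, a fold of 2.55 (limma adjusted p = 0.53). The difference was between -1.53 and -0.90 over the 17 alternatives that did not leave out a single array. All 5 cyclophosphamide arrays were below 4 of the saline arrays, and saline rat 26 lay among the cyclophosphamide arrays. In round spermatids, Ung differed by -0.61 between treatments.

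Cell death and stress genes had few members at the unadjusted level. Of 36 apoptosis genes, 25 lay above 0, with a median of 0.06, and 1 was higher: Tradd, the adaptor of the tumour necrosis factor receptor, had levels of -2.86, -2.11, -2.02, -2.81 and -2.60 against -3.04, -3.30, -2.63, -3.58 and -3.42. Its difference was 0.67 ± 0.22, and cyclophosphamide rats 7 and 16-2012 lay below the highest saline array. Of 151 genes on 5 stress lists, 3 were higher and 7 lower, with a median of 0.02. Over all tested genes, 2.3% were higher and 6.8% lower at this level. The higher ones on the stress lists were Hspa12a at 0.72 ± 0.24 (0.30 with normexp background correction), Dnajb6 at 0.32 ± 0.14 and the endoplasmic reticulum chaperone Canx at 0.28 ± 0.11. The lower ones included Txndc2, the sperm thioredoxin, at -0.66 ± 0.23. Txndc2 was higher in round spermatid than in pachytene arrays by a log2 difference of 3.45. The heme oxygenase Hmox1 differed by 0.09 ± 0.19, the glutathione transferase Gstp1 by -0.11 ± 0.23 and the aldehyde dehydrogenase Aldh1a1, which oxidises a metabolite of the drug, by 0.09 ± 0.20. Antioxidant enzymes had a median of 0.01, and glutathione transferases and aldehyde dehydrogenases one of -0.00. Genes of cyclophosphamide activation and transport had a median of -0.07 over 11 tested, and the cytochrome gene Cyp2b2 gave -0.44 ± 0.17, which normexp background correction moved to -0.15.

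Most genes for protein synthesis and energy lay above 0 by small amounts. Of 84 oxidative phosphorylation genes, 74 lay above 0, with a median of 0.13. Among them, 3 (3.6%) were higher and 1 (1.2%) lower at an unadjusted p under 0.05, against 2.3% and 6.8% of all tested genes. Atp5f1b, the catalytic subunit of ATP synthase, had levels of 3.94, 3.68, 3.75, 3.97 and 3.98 after cyclophosphamide and 3.45, 3.46, 3.47, 3.89 and 3.69 after saline. Its difference was 0.29 ± 0.10, and saline rats 26 and 28 lay within the drug group. Atp5pf gave 0.31 ± 0.12 and Cox6a2, the muscle-type subunit of cytochrome oxidase, -0.42 ± 0.20 (-0.16 with normexp). The round spermatid minus pachytene difference was 2.63 for Cox6a2, against -0.75 for Atp5f1b and -0.25 for Atp5pf. Of 74 cytosolic ribosomal protein genes, 70 lay above 0 (median 0.11), of 64 mitochondrial ones 56 (median 0.11), and of 45 proteasome genes 39 (median 0.11). All 9 subunits of the cytosolic chaperonin CCT, which folds actin and tubulin, lay above 0, from 0.05 to 0.27, and 0 reached an unadjusted p under 0.05. The medians of these lists kept their sign under every alternative but were -0.01, -0.07, -0.01, 0.01 and -0.09 within the first slide. After quantile normalization they were 0.06, 0.03, 0.06, 0.05 and 0.08. These genes are mostly bright, and the brightest 20% of all genes had a median of 0.11. Glycolysis genes had a median of -0.02, with 4 members (12.5%) lower at the unadjusted threshold, against 6.8% of all tested genes. Among them were Gapdhs and the liver-type phosphofructokinase Pfkl (-0.42 ± 0.13). Both were higher in round spermatid than in pachytene arrays, by log2 differences of 2.96 and 1.83.

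Chromatin genes moved little. Over 3 lists, 92 genes had a median of 0.06, with 2 higher and 3 lower at an unadjusted p under 0.05 (background 2.3% and 6.8%). The higher ones were Mbd1, which binds methylated DNA, at 0.28 ± 0.12 and the histone deacetylase Hdac3 at 0.26 ± 0.11. The testis histones H2ac1 and H2bc1 gave 0.39 ± 0.19 and 0.46 ± 0.27. H2ap, an X-linked histone-like gene, gave -0.56 ± 0.23, and the deacetylase Hdac11 -0.35 ± 0.17. The round spermatid minus pachytene difference was 3.05 for H2ap and 1.88 for Hdac11, against -3.48 for Mbd1 and -0.90 for Hdac3.

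Markers of somatic cells were present on all arrays and varied between rats. Macrophage and leukocyte markers had a median of -0.29, with 15 of 18 tested genes below 0. Of the list, 3 (16.7%) were lower at the unadjusted threshold, against 6.8% of all tested genes. Cd74, the invariant chain of class II histocompatibility complexes, had levels of -5.22, -2.92, -4.21, -5.56 and -3.40 after cyclophosphamide and -2.42, -3.81, -2.99, -3.78 and -3.01 after saline. Its difference was -1.19 ± 0.36, and cyclophosphamide rats 15 and 29 lay within the saline range. Mrc1, the macrophage mannose receptor, gave -0.33 ± 0.13. With normexp background correction, Cd74 differed by -0.60 and Mrc1 by -0.13, and the list median was -0.11. The list mean was -2.99, -2.19, -2.51, -3.27 and -2.69 against -2.48, -2.49, -2.33, -2.61 and -2.50, so that cyclophosphamide rats 7 and 16-2012 stood lowest and rat 15 highest. Of these 18 genes, 14 were at least 2-fold higher in round spermatid than in pachytene arrays. The median was -0.06 without saline rats 16 and 26 and also without cyclophosphamide rat 16-2012, either of which leaves slide 4 with 1 treatment. Sertoli cell markers had a median of -0.01, with Clu, a secreted chaperone, at -0.01 ± 0.31. Leydig cell markers had one of -0.05, with the steroid enzyme Cyp11a1 at -0.03 ± 0.52, and peritubular myoid markers one of -0.17, with 11 of 12 below 0. The myoid median was 0.00 without saline rat 28, which leaves slide 3 with cyclophosphamide arrays only, and -0.10 without saline rat 16. It was 0.12 and 0.04 within slides 1 and 2. Cyp11a1 ranged from -2.19 (rat 16) to 0.63 (rat 26) within the saline group alone.

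The single genes with the smallest p-values did not share 1 list. They were taken as the 10 per direction with the smallest p among genes well above background on at least 4 arrays of each group, and each had a limma adjusted p of 0.53. A gene outside that rule, the odorant receptor Or52s1b, had the smallest adjusted p, 0.182. It was well above background on 0 of 5 cyclophosphamide arrays and 4 of 5 saline arrays, and was at least 1.17-fold higher after saline, with the dimmest signal above background in place of its own; its measured mean levels were -6.71 and -5.83. Ptpro, a receptor tyrosine phosphatase, was the first of the lower genes. Its levels were -3.57, -3.85, -3.59, -3.66 and -3.77 after cyclophosphamide and -3.22, -3.24, -3.26, -3.41 and -3.03 after saline, so that the groups did not overlap. The difference was -0.50 ± 0.10, and a second, dimmer probe of the gene gave a difference of group means of -0.50. In round spermatids, Ptpro differed by 0.23, and the difference between the effects had an unadjusted p of 4.4e-05, which did not pass after adjustment.

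Other lower genes without overlap were Grik1, a kainate receptor subunit, and the odorant receptor Or2ag16b. Grik1 had levels of -3.82, -3.79, -3.80, -4.82 and -4.07 against -3.29, -3.18, -3.63, -3.66 and -3.35, a difference of -0.74 ± 0.19 (-0.47 without cyclophosphamide rat 16-2012). Or2ag16b had levels of -4.93, -5.32, -4.95, -5.49 and -5.53 against -4.43, -4.71, -4.92, -4.55 and -4.58, a difference of -0.67 ± 0.15, with cyclophosphamide rat 7 and saline rat 25 next to each other. Shank3, a scaffold of synapses, gave -0.85 ± 0.22, but its other probe gave a difference of group means of -0.07. Its difference was between -0.88 and -0.42 over the 17 alternatives that did not leave out a single array. Tmem25, a membrane protein, gave -0.99 ± 0.22, and saline rat 26 lay within the drug group. The remaining lower genes were Cd300lg, an immunoglobulin-like receptor of endothelium (-0.60 ± 0.14), the sugar transporter Slc45a1 (-0.59 ± 0.14), the sorting nexin Snx29 (-0.51 ± 0.13) and neurogranin, Nrgn (-0.57 ± 0.14). Second, dimmer probes gave differences of group means of -0.83 for Grik1, -0.43 for Or2ag16b, -0.24 for Cd300lg and 0.05 for Tmem25. That of Tmem25 was very dim, at mean levels of -8.29 after cyclophosphamide and -8.34 after saline. With normexp background correction on median signals, the differences of these dim genes were smaller: -0.26 for Ptpro, -0.39 for Grik1, -0.22 for Or2ag16b, -0.61 for Tmem25, -0.34 for Cd300lg, -0.31 for Slc45a1, -0.22 for Snx29 and -0.25 for Nrgn. With Ung these are 10 genes, and 8 of them were at least 2-fold higher in round spermatids than in pachytene cells.

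**Figure D5:**
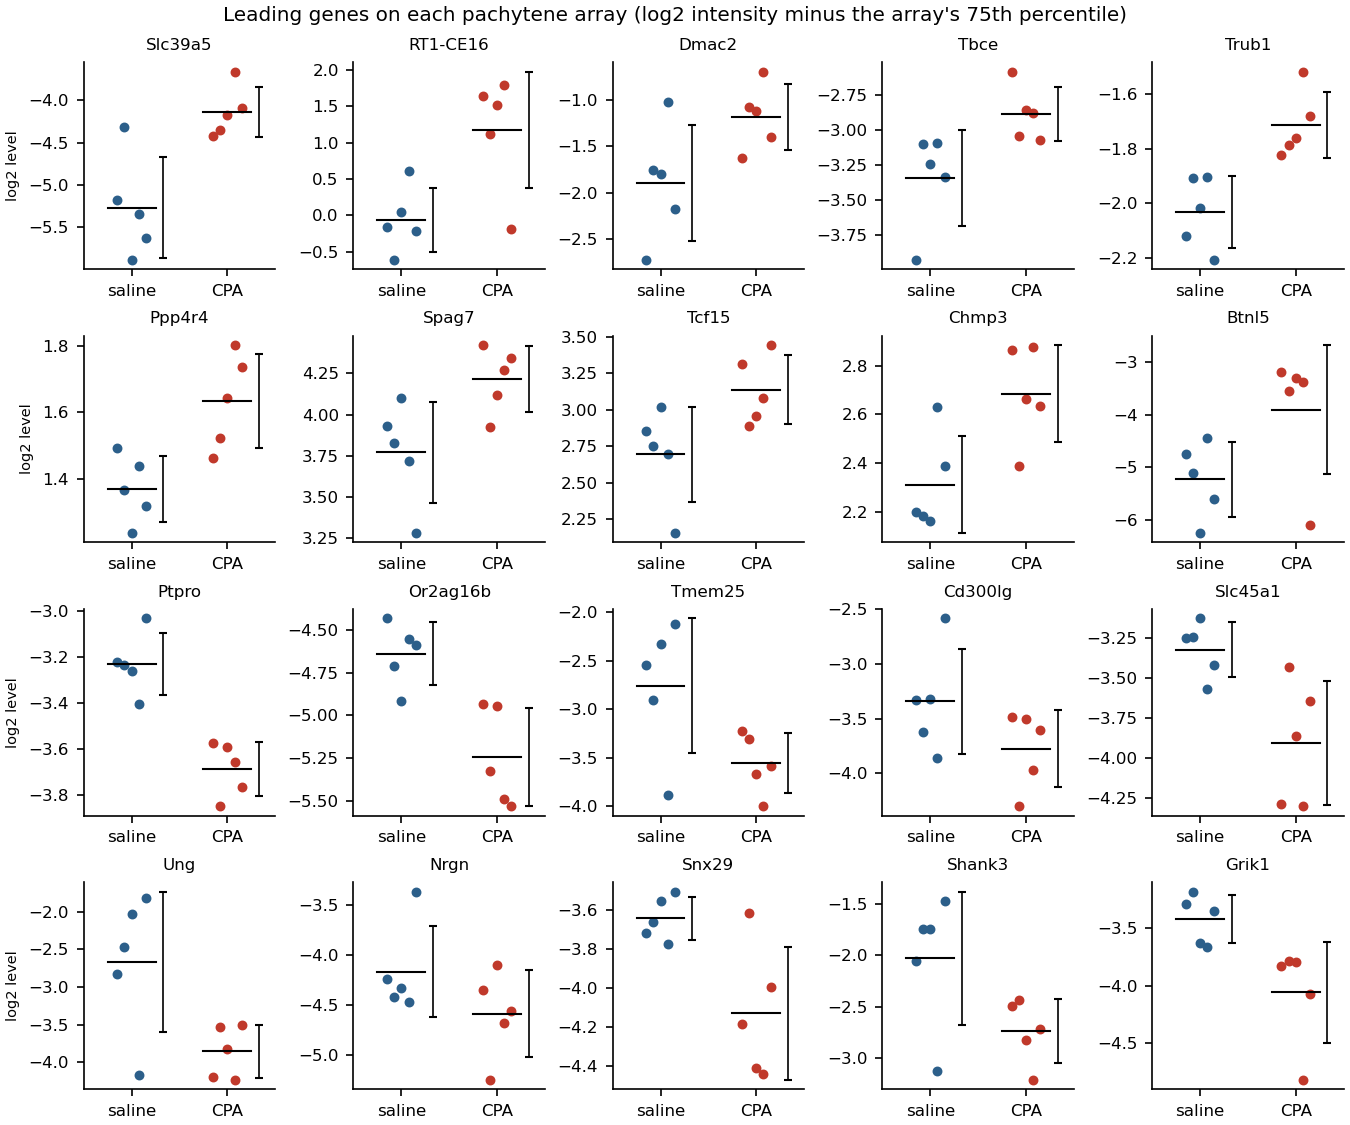
Points are the levels of the 20 leading genes (log2 intensity minus the 75th percentile of the array) on the 5 saline and 5 cyclophosphamide (CPA) pachytene arrays, with the group mean (line) and SD (bar); the y axes differ between panels and do not start at 0. Groups do not overlap for Tbce, Trub1, Ptpro, Or2ag16b and Grik1.

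Among the higher genes, Slc39a5, a zinc importer, had levels of -4.42, -4.35, -4.17, -3.66 and -4.09 after cyclophosphamide and -5.17, -4.31, -5.88, -5.35 and -5.62 after saline. Its difference was 1.27 ± 0.28, a fold of 2.42, and only saline rat 16 reached the drug group. With normexp background correction the difference was 0.60. Tbce, a cofactor that assembles tubulin dimers, had levels of -2.59, -3.04, -2.86, -2.88 and -3.07 against -3.93, -3.10, -3.25, -3.10 and -3.34, without overlap, and differed by 0.46 ± 0.13. The gap between the groups was narrow, since cyclophosphamide rats 15 and 29 lay next to saline rats 16 and 26. Trub1, a pseudouridine synthase of transfer RNA, had levels of -1.83, -1.79, -1.76, -1.52 and -1.68 against -2.12, -1.91, -2.02, -1.90 and -2.20, also without overlap, and differed by 0.37 ± 0.11. Dmac2, which assembles complex I of the respiratory chain, gave 0.86 ± 0.23, and saline rat 26 lay within the drug group. The regulatory phosphatase subunit Ppp4r4 gave 0.30 ± 0.09, Chmp3 of the membrane-cutting ESCRT machinery 0.38 ± 0.12, the sperm-associated antigen Spag7 0.48 ± 0.14 and the transcription factor Tcf15 0.48 ± 0.15. Without saline rat 28, which leaves slide 3 with cyclophosphamide arrays only, Spag7 gave 0.27 and Tcf15 0.28. Trub1 alone of these 10 genes was at least 2-fold higher in pachytene cells, and 0 were 2-fold higher in round spermatids. Of all autosomal genes, 17.2% were 2- to 4-fold and 9.5% at least 4-fold higher in pachytene cells.

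A pair of the higher genes, RT1-CE16 and Btnl5, lie on chromosome 20, which also holds the RT1 genes of the rat histocompatibility complex, and their levels fell into steps between rats. RT1-CE16, a class I antigen-presenting molecule, had levels of 1.64, 1.12, 1.52, 1.79 and -0.18 after cyclophosphamide and -0.16, -0.61, 0.04, 0.61 and -0.21 after saline, a difference of 1.25 ± 0.31. Other genes of the chromosome showed a related split between rats. RT1-A2, another class I molecule, had levels of 1.25, -0.37, 1.09, 1.17 and -0.36 against -0.35, -0.38, -0.09, -0.77 and -0.43, a difference of 0.89 ± 0.32, so that rats 7, 16-2011 and 16-2012 were high and all other arrays low. Gtf2h4, a subunit of the repair and transcription factor TFIIH on the same chromosome, had levels of 3.59, 2.57, 3.51, 3.61 and 3.02 against 2.30, 2.62, 2.69, 2.38 and 2.57. The same 3 rats were high, and its difference was 0.73 ± 0.43. RT1-CE12 lay on the other side at -1.26 ± 0.48. Btnl5, a butyrophilin-like gene, gave 1.36 ± 0.42, and its other probe gave a difference of group means of 0.18. With normexp background correction Btnl5 gave 0.74. In round spermatids of saline rats, RT1-A2 was at 0.56, 0.71 and 0.90 in rats 28, 25 and 16 and at 0.03, -0.24 and -0.20 in rats 15, 17 and 29. The pachytene arrays of saline rats 28, 25 and 16 were among the low ones, so these high values did not carry over between the cell types. Round spermatid arrays of cyclophosphamide rats 14, 15, 16, 25, 26 and 27 gave 0.92, 0.21, 1.34, 0.73, -0.03 and 0.81. RT1 genes have near-identical copies that a probe may not separate, and the source of the steps was not tested.

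The lists of spermatid genes were near 0 in round spermatids, with medians of 0.06 for round and 0.03 for late spermatid markers between treatments. Of 18450 genes, 0 passed the test of the difference between the drug effects in the cell types (0.0% called; limma, smallest adjusted p = 0.40), and 1798 had an unadjusted p under 0.05. The fit took all arrays as independent and did not pair those with the same treatment and rat number in both cell types. Leaving out the pachytene array of saline rat 28 left slide 3 with cyclophosphamide arrays only, and 1 gene without a symbol passed. Its effect in round spermatids was higher than that in pachytene cells by 1.63 ± 0.24 on the log2 scale (limma adjusted p = 0.048).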

How the data were processed

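RNA of purified germ cells was hybridised to 22 Agilent one-colour rat arrays on 4 slides. Per the file headers, the authors' scanner files hold the processed intensity of each spot, background-subtracted and not scaled between arrays; Feature Extraction 11.5.1.1 is named in the submitters' processing notes, and another version in the headers. The deposited value table holds log2 values that matched quantile-normalized scanner values centred per probe (correlation with the own array 0.999). Control and outlier spots were left out, spots of a probe averaged, log2 taken and the 75th percentile of each array subtracted.

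RefSeq accessions gave 59.3% of 30367 probes a symbol (GRCr8 table, names only). The brightest probe stood for a gene, tested where well above background on at least 4 of 5 arrays of a pachytene group. limma 3.58.1 (R 4.3.3, statmod 1.5.0) fitted all 22 arrays as 4 group means plus slide, with Benjamini-Hochberg adjusted p under 0.05. The number of arrays limits the precision. Values with ± are standard errors. The procedure was tested on simulated data.

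Named genes were the 10 with the smallest p per direction, up to 3 members per list, and 22 genes of interest, not all of which are reported here. The members and the 49 lists were chosen with earlier results of these data known. Alternatives covered slide, rat, scaling, background, filters, probes and left-out arrays. Figures used Python 3.11.15 with matplotlib 3.10.9.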

Additional observations from a re-analysis of the deposited data

Results flagged for a closer look

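In 13 of 186 groups of 5 arrays examined, 1 array stood far from the other 4; chance gives about 1 in 20. Among the leading genes, Tbce was -3.93 in saline rat 13 (others -3.34 to -3.10), Btnl5 -6.09 in cyclophosphamide rat 29 (others -3.55 to -3.18), Nrgn -3.37 in saline rat 28 (others -4.47 to -4.25) and Grik1 -4.82 in cyclophosphamide rat 16-2012 (others -4.07 to -3.79). Among the other genes of interest, Sycp3 was 3.32 and the crosslink repair gene Fancd2 -1.27 in cyclophosphamide rat 15, and Mdm2 was 1.39 and Aldh1a1 0.56 in cyclophosphamide rat 16-2012.

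List means also held such arrays. Peritubular myoid markers were at -2.01 in saline rat 26 (others -1.51 to -1.34), and crossover and mismatch repair genes at 0.10 in saline rat 13 (others 0.23 to 0.26). In cyclophosphamide rat 16-2012, DNA damage checkpoint genes were at -0.09 (others -0.27 to -0.24) and the mean of all tested genes at -0.95 (others -0.91 to -0.89). Nucleotide excision repair genes were at 0.07 in cyclophosphamide rat 15 (others 0.21 to 0.24).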

How the results depend on the processing

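With every alternative, 0 genes passed for cyclophosphamide against saline, and the smallest adjusted p over these was 0.052 to 0.828. The count at an unadjusted p under 0.05 was 1680, and it was 1076 when the 10 pachytene arrays were fitted alone with slide, 827 alone without slide and, on the same 10 arrays with slide, 1022 in the authors' value table. Leaving out each array in turn gave 856 to 2947 genes, and 0 to 1 genes for the difference of effects between cell types. With the rat as a random replicate block, 0 genes passed and 1493 had an unadjusted p under 0.05; the correlation within rats was 0.094, and the pachytene treatment groups share a single rat number, 16, which the labels do not tie to 1 animal. Averaging the arrays 16-2011 and 16-2012 gave 1165. Alternatives added after seeing the data were normexp on median signals (1182), slides paired by scan day (1412) and leaving out saline rats 16 and 26 (1505). Normexp on mean signals was not run, since the files used here carry median signals. Over 27 alternatives, 29 of 50 lists, the X-linked genes included, and all 20 leading genes kept their sign. Within every slide, where a treatment had 1 or 2 pachytene arrays, 17 of these 20 kept it. The number of arrays limits all of these comparisons.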

Other observations

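Over 38 genes whose levels split into separate steps among the pachytene arrays, 4 of 6 pachytene arrays with a round spermatid array of the same treatment and number correlated with it at 0.62 to 0.86, and with any other round spermatid array at 0.39 or less. Cyclophosphamide 16-2011 correlated with round spermatid array 16 at 0.75, whereas 16-2012 gave -0.19, and the pachytene arrays 16-2011 and 16-2012 correlated with each other at -0.30. Saline rat 16 gave 0.15. These correlations describe rats over genes chosen for their steps and carry no test.

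The E1A spike-in control r60_1 was at 13.75 to 14.56 (log2 intensity) on the 4 pachytene arrays of the first pair of slides and at 11.08 to 11.46 on the 6 of the other pair. Pachytene arrays of both treatments were on every slide, and round spermatid arrays were on slides 1 and 2 only.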
